A study of Rattus norvegicus with 12 samples.

Results

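The cell cycle and DNA replication genes described here are 46 genes named by symbol. They are cyclins, cyclin-dependent kinases and their partners, partners of the anaphase-promoting complex, and replication and nucleotide supply genes. Mitotic kinases and checkpoint genes, kinesins, spindle and cytokinesis proteins, and the proliferation markers Mki67 and Top2a complete the list. Of the 46, 43 had at least 1 probe set annotated to that symbol alone, 60 probe sets in all, out of 14217 genes named on the array in this way. Kif4a, Tpx2 and Rrm2 had none and are not described further. Each gene was represented by its probe set with the highest mean log2 signal over the 12 arrays. Of the 43 genes, 35 passed the filter on low signal (a mean signal of about 147.5 or more) and were tested; Cdk2, Bub1, Bub1b, Aurka, Plk1, Birc5, Kif11 and Kif2c fell below it.

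The arrays, Affymetrix Rat Genome 230 2.0, measured total RNA of primary retinal ganglion cells, which send the axons of the optic nerve. The cells came from retinas of Sprague-Dawley rat pups aged 4 to 6 days after birth and were purified by panning for Thy-1.1, which these neurons carry on their surface. They were grown for 7 days in serum-free medium with forskolin, ciliary neurotrophic factor and brain-derived neurotrophic factor, and were then held overnight in medium that lacked the neurotrophic factors. ET-1, ET-2 or ET-3, the 3 endothelin peptides, was then given at 100 nM for 24 h. The control received no endothelin; its titles call it untreated, the term used below, and its descriptions vehicle. There were 3 arrays in each of the 4 groups, with biological replicate numbers 1 to 3. How many pups or cultures lie behind an array is not given in the sources used here. Set against each other, these groups ask how the genes differ between each endothelin and the untreated cells, and between the 3 endothelins.

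Endothelins are vasoactive peptides that act through 2 G protein-coupled receptors, ETA and ETB. Ganglion cells are postmitotic neurons, whereas glia, pericytes and fibroblasts of a retinal culture can divide. In a dividing cell, D cyclins with Cdk4 act on the retinoblastoma protein and free E2F factors, which switch on replication genes such as the Mcm helicase subunits, Pcna and Tk1. Ccna2, Ccnb1 and Ccnb2 with Cdk1 then carry the cell into mitosis, and kinesins, Aurora and Polo kinases and cytokinesis proteins build and divide the spindle. The transcripts of the mitotic genes are low outside S phase, G2 and mitosis.

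The 4 arrays numbered 1 stood apart from the others before any comparison of the cell cycle genes. The summed signal of 8 fibroblast markers (among them Col1a1, Col1a2, Col3a1 and Dcn) was 51476 on untreated array 1 against 12561 and 7677 on untreated arrays 2 and 3, and it was 51632 to 57417 on the endothelin arrays numbered 1. The 11 ganglion cell markers ran the other way, at 78057, 102281 and 114694 on untreated arrays 1, 2 and 3 and 78128 to 125729 on the endothelin arrays, so the labelled cell type was present on all of them. Array medians lay between 136 and 181. The labels do not say what the arrays of 1 number share, but arrays of the same number deviated from their group means together (Pearson's r across probe sets of 0.684 to 0.912 for the 18 pairs of the same number, and -0.758 to -0.056 for the others). A pair of fits by limma is therefore given, without and with the replicate number as a block, and the latter is called the paired fit. A gene is called where its Benjamini-Hochberg adjusted p over 15521 probe sets is under 0.05.

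The cell cycle genes were high on the 3 endothelin arrays numbered 1 and close to the untreated level on the others. Their median signal was 232, 163.6 and 153.7 on untreated arrays 1, 2 and 3, 740.5, 207 and 181 with ET-1, 674, 202 and 205 with ET-2, and 659, 216 and 183 with ET-3, while the median of all named genes stayed between 348 and 375 on the 12 arrays. Within replicate number 1, all 43 genes were higher with each endothelin than in the untreated culture, with a median difference of 1.52 (ET-1), 1.49 (ET-2) and 1.58 (ET-3) on the log2 scale, or 2.87, 2.80 and 2.99-fold. Within number 2 the medians were 0.38, 0.20 and 0.39, with 38, 30 and 34 of 43 genes higher. Within number 3 they were 0.26, 0.25 and 0.15, with 30, 31 and 33 genes higher. Of all named genes, 43.59%, 46.55% and 47.51% were higher with ET-1, ET-2 and ET-3 in number 1. The shares were 54.88%, 54.55% and 52.21% in number 2, and 51.52%, 51.79% and 51.75% in number 3. With 1 array for each group and number, the difference between the numbers has no test. In RNA of a whole culture, more dividing cells and more transcript in each cannot be told apart.

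**Figure D1:**
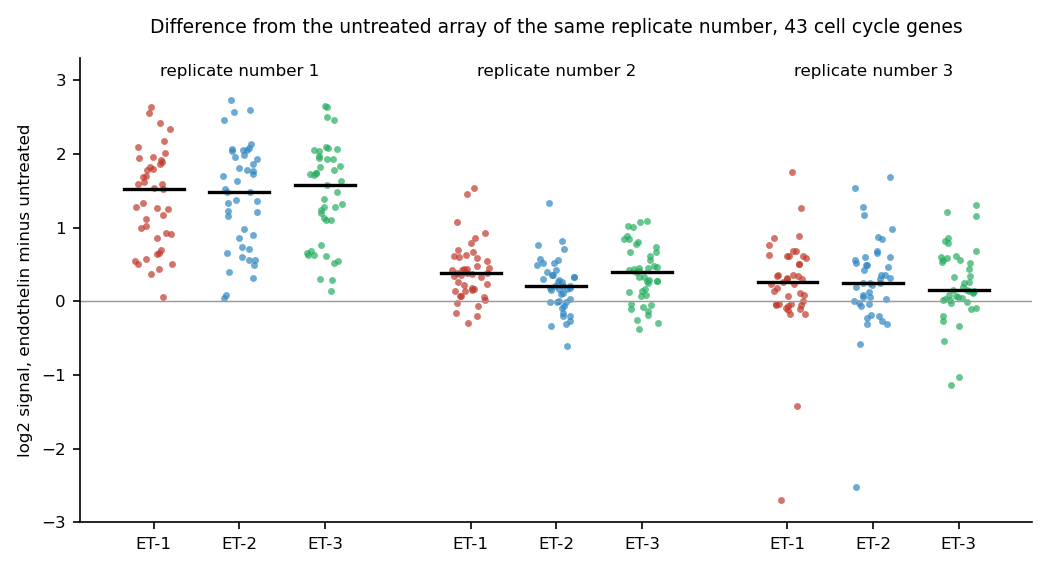
Difference in log2 signal between each endothelin array and the untreated array of the same replicate number, with 1 point for each of the 43 cell cycle genes and a bar at their median. All points of replicate number 1 lie above 0, with medians of 1.52, 1.49 and 1.58, and those of numbers 2 and 3 have medians between 0.15 and 0.39.

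At least 2-fold higher signal with all 3 endothelins was seen for 29 of the 43 genes in number 1, against 3.50% of all named genes. It was seen for 1 gene in number 2 (2.93% of all) and for 1 in number 3 (2.16%). Averaged over the 3 endothelins, 41 of the 43 genes had their largest difference in number 1, which held for 30.06% of all named genes. The exceptions were Ccnd1, largest in number 2, and Mcm5, largest in number 3. The untreated array 1 itself had the highest untreated signal for 36 of the 43 genes (29.16% of all named genes), by a median of 0.54 on the log2 scale over the mean of untreated arrays 2 and 3. In direction alone, 16 genes were higher in all 9 differences within numbers, against 5.62% of all named genes. They were Ccna2, Ccnb2, Ccnd1, Cks2, Cdkn3, Ube2c, Mcm3, Mcm4, Tk1, Bub1, Kif20a, Kif22, Nusap1, Ect2, Racgap1 and Mki67.

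The 3 endothelins gave nearly the same values in number 1. Their range in a gene's difference from untreated had a median of 0.145 in number 1, 0.277 in number 2 and 0.345 in number 3, on the log2 scale. The untreated array of a number cancels out of this range. Signals were also higher in number 1, with medians of 659 to 741 on its endothelin arrays against 181 to 216 on the other endothelin arrays. Whether the range depends on signal was not tested.

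Without the block, no cell cycle gene was called for any endothelin, or for the 3 together, and no other gene was either (background 0.00%). The lowest adjusted p over all probe sets was 0.9999, 0.854 and 0.609 for ET-1, ET-2 and ET-3, and 0.128 for the 3 together (limma). Of the 35 genes tested, 1, 0, 0 and 2 had an unadjusted p under 0.05, against 1.53%, 1.44%, 1.91% and 2.56% of all probe sets. The median residual SD of the 35 was 0.926 without the block and 0.404 with it, on the log2 scale, against 0.2498 and 0.127 for all probe sets.

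In the paired fit the called genes all rose. With ET-1, 4 of 35 were called, Ccnb2, Ccnd1, Mcm3 and Tk1 (background 1.84% for a rise). With ET-2, 5 were called, Ccna2, Ccnb2, Ccnd1, Mcm3 and Tk1 (background 1.49% for a rise). With ET-3, the 5 were Ccna2, Kif20a, Kif22, Mki67 and Tk1 (background 2.54% for a rise). With the 3 endothelins together, 17 were called (background 4.02% for a rise). Of the 35, 26, 22, 23 and 26 had an unadjusted p under 0.05 in these comparisons, against 15.5%, 16.3%, 17.8% and 21.8% of all probe sets. The comparisons share the untreated arrays. The residual spread of the paired fit includes that between the 3 endothelin arrays of a number, which moved together in number 1. Its p-values and SEs can therefore understate how far the difference from untreated varied between numbers, above all with the 3 together.

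All but 1 of these calls were lost without the arrays numbered 1. Without that number the paired fit called 0 of 35 with each endothelin (background 0.711%, 0.191% and 0.573% in either direction). With the 3 together it called 1, Ccnd1, at an adjusted p of 0.0358 by limma (background 1.53% in either direction). The unadjusted p was under 0.05 in 16, 12 and 12 of the 35 with ET-1, ET-2 and ET-3, and in 15 with the 3 together. The shares of all probe sets were 11.2%, 10.7%, 10.7% and 13.2%. The median log2 difference over the 43 genes went from 0.63, 0.67 and 0.68 for ET-1, ET-2 and ET-3 to 0.29, 0.17 and 0.34, against medians near 0 for all named genes. For the 3 together it went from 0.64 to 0.30. The loss of single-endothelin calls was not particular to number 1. Without number 2 or without number 3 the paired fit called at most 1 gene with each endothelin. With the 3 together it then called 7 and 14. Leaving out a number also leaves fewer arrays for the fit. Single untreated arrays also moved the counts. Without untreated array 3 they were 14, 10, 14 and 20, without untreated array 2 they were 7, 8, 8 and 16, and without untreated array 1 they were 1, 2, 4 and 8.

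**Figure D2:**
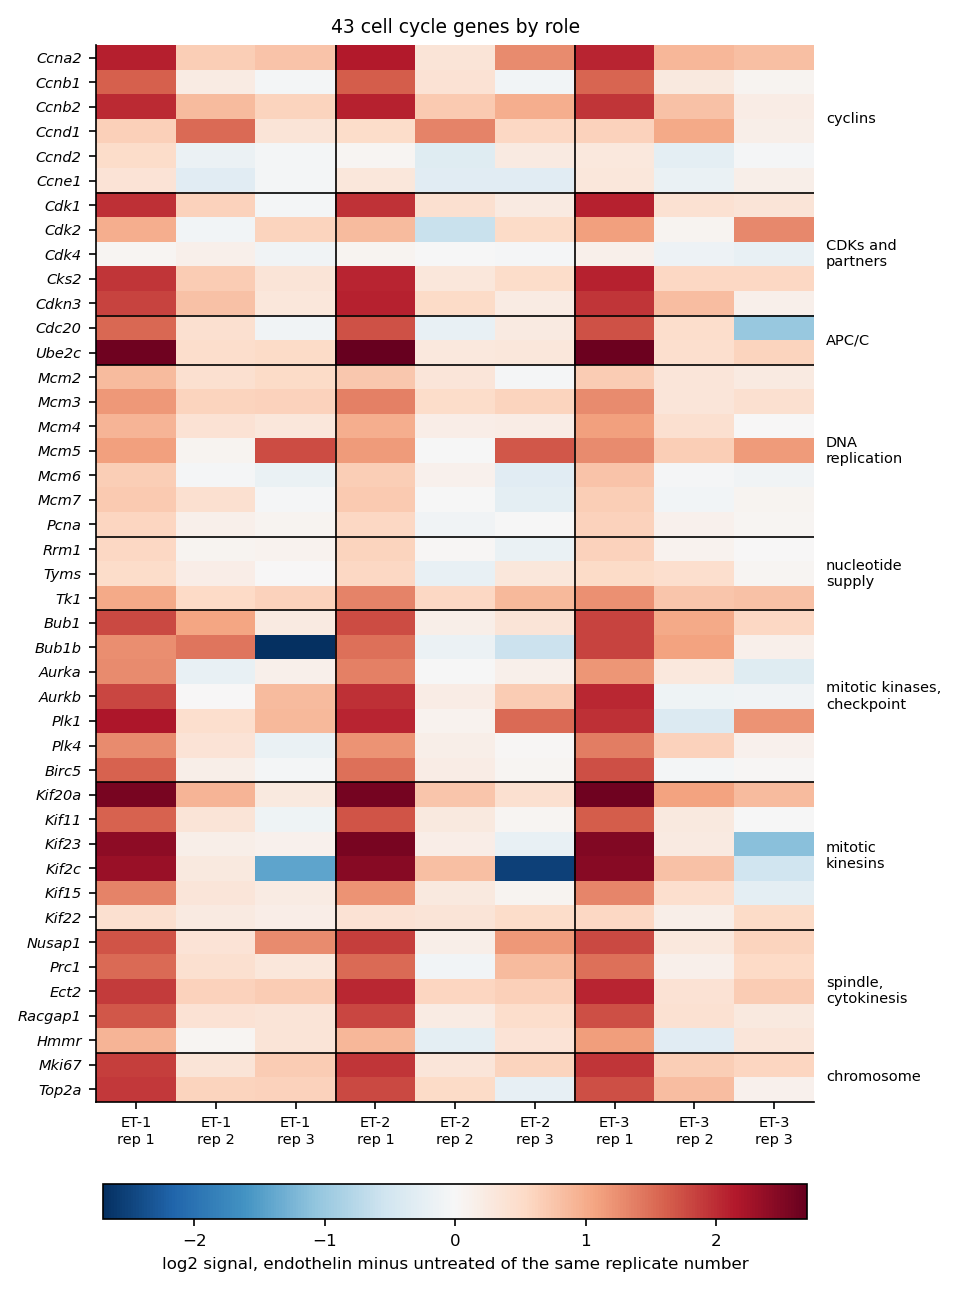
Difference in log2 signal from the untreated array of the same replicate number for each of the 43 genes (rows, by role) on the 9 endothelin arrays (columns). The columns of replicate number 1 are dark red for most mitotic genes and paler for the D cyclins, Ccne1, Cdk4, Pcna and the nucleotide supply genes.

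Cell cycle genes that move together often carry short promoter motifs: CCAAT, bound by NF-Y; the cell cycle homology region TTTGAA, bound by DREAM and MuvB complexes; and E2F motifs, searched here as TTTCGCGC, TTTGGCGC, TTTCCCGC or TTTGCCGC, all on both strands. RefSeq windows (GRCr8) held the 250 bases before the start of 36 of the 43 genes. CCAAT was found in 25 of 36 (69.4%), against 34.3% of all 27457 windows and 35.1% of the windows of 11700 genes on the array. At least 2 CCAAT matches were found in 18 (50.0%, against 9.8% of all windows). TTTGAA was found in 15 (41.7%, against 16.0% and 10.9%) and an E2F motif in 6 (16.7%, against 1.8% and 2.9%), while 8 (22.2%, against 54.3%) held none of the 3. A TTTGAA may overlap a CCAAT match. Within 100 bases of the start lay 32 of 59 CCAAT matches and 13 of 20 TTTGAA matches.

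Windows of 4 genes called with at least 1 single endothelin in the paired fit are shown, a mitotic cyclin, a replication helicase subunit, a mitotic kinesin and a proliferation marker, each read 5′ to 3′ towards the start, with CCAAT or ATTGG and TTTGAA or TTCAAA in capitals. They lie on the minus strand of GRCr8 at chr8:79981659-79981908 (Ccnb2), chr9:30733747-30733996 (Mcm3), chr1:191080879-191081128 (Kif22) and chr1:199952594-199952843 (Mki67).
Ccnb2: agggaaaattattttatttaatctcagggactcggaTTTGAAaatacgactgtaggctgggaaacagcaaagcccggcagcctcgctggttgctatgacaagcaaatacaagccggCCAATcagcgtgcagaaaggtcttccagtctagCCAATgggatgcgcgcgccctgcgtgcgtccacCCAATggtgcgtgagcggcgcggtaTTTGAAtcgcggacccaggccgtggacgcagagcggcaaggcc
Mcm3: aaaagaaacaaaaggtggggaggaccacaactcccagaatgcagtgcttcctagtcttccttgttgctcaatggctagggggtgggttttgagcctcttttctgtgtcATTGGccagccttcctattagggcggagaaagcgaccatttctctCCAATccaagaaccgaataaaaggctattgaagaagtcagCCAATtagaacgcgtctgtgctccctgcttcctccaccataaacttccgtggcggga
Kif22: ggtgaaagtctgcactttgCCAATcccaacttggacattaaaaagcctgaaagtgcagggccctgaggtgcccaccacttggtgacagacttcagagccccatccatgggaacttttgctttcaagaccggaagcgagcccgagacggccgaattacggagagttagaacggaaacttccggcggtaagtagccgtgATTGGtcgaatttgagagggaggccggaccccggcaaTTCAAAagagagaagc
Mki67: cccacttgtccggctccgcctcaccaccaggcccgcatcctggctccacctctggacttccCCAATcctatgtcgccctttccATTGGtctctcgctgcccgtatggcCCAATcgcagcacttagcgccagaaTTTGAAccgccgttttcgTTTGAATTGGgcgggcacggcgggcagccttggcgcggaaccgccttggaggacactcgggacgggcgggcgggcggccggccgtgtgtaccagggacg
Ccnb2 has 3 CCAAT matches that begin 134, 101 and 68 bases before the start and a TTTGAA at 43, the closest to the start of its 2. Mcm3 has 3 CCAAT matches and no TTTGAA, Kif22 has 2 and 1, and Mki67 has 4 and 2, with 1 TTTGAA overlapping an ATTGG. The window of Tk1, called with every endothelin on its brightest probe set, held none of the 3 motifs. A match describes the letters and does not show that a factor was bound.

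Differences below are on the log2 scale unless given as a fold, with the SE of the paired fit over 3 arrays per group. Ccna2, the A cyclin of S phase and G2, had a signal of 233, 108 and 71.0 on untreated arrays 1, 2 and 3, 993, 172 and 121 with ET-1, 1021, 138 and 172 with ET-2 and 965, 200.0 and 126 with ET-3. The 3 endothelin arrays numbered 1 lay more than 4 times above every untreated array, and all 6 other endothelin arrays lay between untreated arrays 1 and 2. Ccna2 rose with ET-2 by 1.25 ± 0.27 (adjusted p = 0.0422 by limma, paired fit) and with ET-3 by 1.25 (adjusted p = 0.0310), and with ET-1 it stood at 1.18 (adjusted p = 0.0514). For the 3 endothelins combined the difference was 1.23 (adjusted p = 0.00815), and without number 1 it was 0.80 (adjusted p = 0.136).

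Ccnb2, a B cyclin of mitotic entry, read 219.6, 129 and 176 on untreated arrays 1, 2 and 3, 885, 233 and 265 with ET-1, 925, 211 and 347 with ET-2 and 839, 224 and 201 with ET-3. All 3 ET-1 arrays lay above all 3 untreated arrays, whereas ET-2 and ET-3 each had an array below untreated array 1. It rose by 1.15 ± 0.26 with ET-1 (adjusted p = 0.0455 by limma, paired fit) and by 1.26 with ET-2 (adjusted p = 0.0335), and stood at 0.98 with ET-3 (adjusted p = 0.0701). Without number 1 the 3 together gave 0.69 (adjusted p = 0.116). Ccnb1, its close relative, was at 0.63 with the 3 together and was not called on its brightest probe set (adjusted p = 0.113 by limma, paired fit), while its other probe set gave 1.07 (adjusted p = 0.0182).

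Ccnd1, the D cyclin that couples growth signals to Cdk4, had a different pattern. Its signal was 561, 623 and 1135 on untreated arrays 1, 2 and 3, 875, 1811 and 1448 with ET-1, 792, 1568 and 1669 with ET-2 and 865, 1258 and 1267 with ET-3. The arrays numbered 1 were the lowest of each group, and the difference was largest in number 2, at 1.29 on the log2 scale averaged over the endothelins, against 0.59 in number 1 and 0.36 in number 3. It rose by 0.84 ± 0.17 with ET-1 (adjusted p = 0.0271 by limma, paired fit) and by 0.79 with ET-2 (adjusted p = 0.0409), and with ET-3 it was at 0.60 (adjusted p = 0.0876). Without number 1 the 3 endothelins together still passed, at 0.82 against 0.75 with it. Its 2 other probe sets gave 0.52 and 1.16 with the 3 together (adjusted p = 0.0422 and 0.00896 by limma, paired fit). For single endothelins the calls depended on the probe set. In the same order, their adjusted p was 0.0611 and 0.0272 with ET-1 (limma, paired fit). It was 0.1585 and 0.0809 with ET-2, and 0.223 and 0.0349 with ET-3.

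Ccnd2, a second D cyclin, read 335, 422 and 1132 on untreated arrays 1, 2 and 3, 475, 379 and 1099 with ET-1, 346, 335 and 1343 with ET-2 and 409, 354 and 1111 with ET-3. The groups overlapped, and in each of them array 3 was the highest, at 1099 or more against 475 or less on the other arrays. Its difference with the 3 together was 0.03 (adjusted p = 0.907 by limma, paired fit).

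Cdk4, the D cyclin kinase, read 2639.9, 1943 and 2358 on untreated arrays 1, 2 and 3, 2737, 2138 and 2195 with ET-1, 2794, 1926 and 2291 with ET-2 and 2914, 1776 and 2054 with ET-3. Its differences were 0.09, -0.0016 and -0.11 on the log2 scale in numbers 1, 2 and 3, and all groups overlapped. Its combined difference was -0.01 (adjusted p = 0.956 by limma, paired fit).

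Cks2, a small subunit that binds Cdk1, read 434, 314 and 230.3 on untreated arrays 1, 2 and 3, 1665, 508 and 291 with ET-1, 1804, 389 and 324 with ET-2 and 1846, 463 and 339.8 with ET-3. Cdkn3, a phosphatase of the cyclin-dependent kinases, read 359, 242 and 255 on untreated arrays 1, 2 and 3, 1265, 421 and 313 with ET-1, 1507, 348 and 296 with ET-2 and 1366, 434 and 280.3 with ET-3. For both, the endothelin arrays numbered 1 were the highest, and every endothelin array lay above the untreated array of its own number. With the 3 together Cks2 rose by 1.004 (adjusted p = 0.0227 by limma, paired fit) and Cdkn3 by 0.96 (adjusted p = 0.0290), and without number 1 the differences were 0.49 (adjusted p = 0.127) and 0.47 (adjusted p = 0.196).

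The anaphase-promoting complex marks cyclins and other mitotic proteins for breakdown. Ube2c, its ubiquitin-conjugating enzyme, read 235, 164 and 165 on untreated arrays 1, 2 and 3, 1459.9, 228 and 235 with ET-1, 1566, 199 and 205 with ET-2 and 1468, 224 and 252 with ET-3. It had the largest difference of the 43 genes in number 1, 2.67 on the log2 scale averaged over the endothelins (6.37-fold), against 0.41 and 0.48 in numbers 2 and 3. The combined difference, 1.18, was called (adjusted p = 0.0474 by limma, paired fit) and was 0.44 without number 1 (adjusted p = 0.207). Cdc20, its activator, read 178, 120.2 and 125 on untreated arrays 1, 2 and 3, 518, 163 and 117 with ET-1, 588, 105 and 148 with ET-2 and 584, 167 and 61.3 with ET-3, and the lowest of these arrays was ET-3 array 3. Cdc20 was at 0.54 with the 3 together (adjusted p = 0.353 by limma, paired fit).

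**Figure D3:**
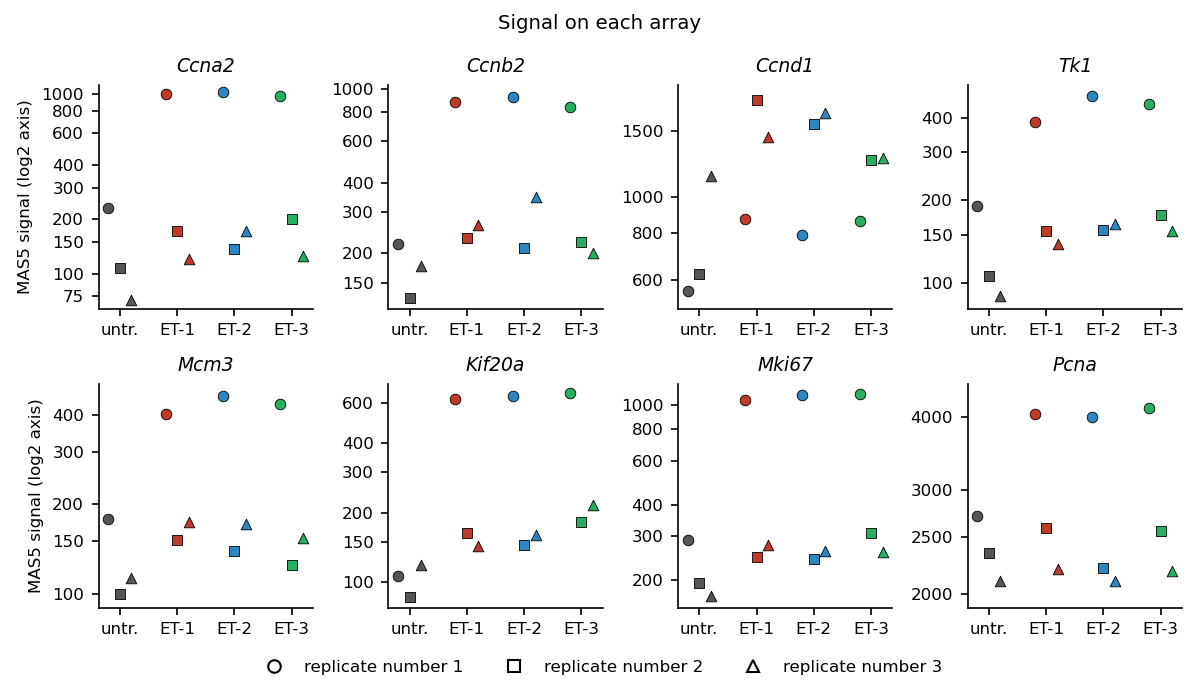
Signal of 8 cell cycle genes on each array (log2 axis, different in each panel), by group, with the shape of a point giving its replicate number. For 7 of the 8 the 3 endothelin arrays numbered 1 stand above all others, whereas for Ccnd1 the array numbered 1 is the lowest of each group.

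Replication genes had smaller differences than the mitotic genes in number 1. Their median there was 0.76 on the log2 scale over 7 genes (1.70-fold), against 2.03 for the 6 kinesins. Mcm3, a subunit of the replicative helicase, read 179, 99.5 and 113 on untreated arrays 1, 2 and 3, 404, 151 and 174 with ET-1, 462, 139 and 171 with ET-2 and 435, 125 and 153 with ET-3. In every number the endothelin arrays exceeded the untreated one, yet arrays 2 and 3 stayed below untreated array 1. Mcm3 rose by 0.80 ± 0.18 with ET-1 (adjusted p = 0.0461 by limma, paired fit) and by 0.82 with ET-2 (adjusted p = 0.0442), and was at 0.68 with ET-3 (adjusted p = 0.0695). Without number 1 its difference with the 3 together was 0.51 (adjusted p = 0.211).

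The other helicase subunits were called only with the 3 endothelins together, if at all. Mcm2 read 399, 179.7 and 149 on untreated arrays 1, 2 and 3, 725, 243 and 212 with ET-1, 664, 226 and 147 with ET-2 and 641, 227 and 177 with ET-3. Mcm4 read 548, 428 and 377 on untreated arrays 1, 2 and 3, 1033, 558 and 469.8 with ET-1, 1082, 484 and 431 with ET-2 and 1177, 581 and 380.4 with ET-3. For Mcm2 every array numbered 2 or 3 lay below untreated array 1, and for Mcm4 all but ET-1 array 2 and ET-3 array 2 did. Mcm2 rose by 0.46 (adjusted p = 0.0407) and Mcm4 by 0.50 (adjusted p = 0.0473 by limma, paired fit). Neither was called without number 1, where Mcm4 was at 0.25 (adjusted p = 0.389) and Mcm2 had an adjusted p of 0.447.

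Mcm5 read 203, 131 and 71.6 on untreated arrays 1, 2 and 3, 439, 137 and 241 with ET-1, 452, 129.8 and 231 with ET-2 and 495, 207 and 159 with ET-3. Number 3 gave the largest difference, 1.53 on the log2 scale, from the low signal of untreated array 3, against 1.18 in number 1 and 0.24 in number 2. Mcm5 rose by 0.98 with the 3 together (adjusted p = 0.0261 by limma, paired fit), and was at 0.88 without number 1 (adjusted p = 0.230). Pcna, the sliding clamp of the replication fork, was the brightest of the group at 2711, 2352 and 2108 on untreated arrays 1, 2 and 3, 4049, 2589 and 2208 with ET-1, 3996, 2211 and 2105 with ET-2 and 4143, 2563 and 2186 with ET-3. It was 1.50-fold higher in number 1 and 1.04 and 1.03-fold in numbers 2 and 3, and was not called (0.23 with the 3 together, adjusted p = 0.143 by limma, paired fit).

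Of the nucleotide supply genes, Tk1 was called with every endothelin on its brightest probe set. Tk1, the thymidine kinase of S phase, read 191, 106 and 89.2 on untreated arrays 1, 2 and 3, 389, 155 and 138 with ET-1, 484, 156 and 164 with ET-2 and 452, 177 and 155 with ET-3. In numbers 2 and 3 all 6 endothelin arrays exceeded both untreated arrays of these numbers. It rose by 0.73 ± 0.16 with ET-1 (adjusted p = 0.0324), 0.92 with ET-2 (adjusted p = 0.0144) and 0.93 with ET-3 (adjusted p = 0.00840 by limma, paired fit). With the 3 together it rose by 0.86 ± 0.13 (adjusted p = 0.00227), and without number 1 the value was 0.69 (adjusted p = 0.101). A second tested probe set of Tk1 gave 0.77 with the 3 together (adjusted p = 0.0437 by limma, paired fit). That probe set was not called with ET-1, ET-2 or ET-3 alone (adjusted p = 0.1395, 0.1672 and 0.1068 by limma, paired fit).

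Rrm1, the large subunit of ribonucleotide reductase, read 853, 787 and 718 on untreated arrays 1, 2 and 3, 1247, 827 and 765 with ET-1, 1292, 804 and 631 with ET-2 and 1315, 836 and 728 with ET-3. The endothelin arrays numbered 1 were the highest, at 1.51-fold over untreated, and the other arrays overlapped (1.05 and 0.983-fold in numbers 2 and 3). Rrm1 was not called (0.21 with the 3 together, adjusted p = 0.235 by limma, paired fit).

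Mitotic kinase and checkpoint genes were high in number 1, with medians of 1.60, 0.10 and 0.01 over 7 genes in numbers 1, 2 and 3. Of the 7, 2 passed the filter on low signal. Single genes below it lay away from these medians, such as Bub1b (0.79 in number 2 and -1.04 in number 3) and Plk1 (1.21 in number 3). Plk4, the kinase of centriole duplication, read 331, 215 and 195 on untreated arrays 1, 2 and 3, 803, 279 and 172 with ET-1, 766, 240.3 and 198 with ET-2 and 866, 329 and 211 with ET-3. Aurkb, the kinase of the chromosomal passenger complex, read 148, 115 and 82.6 on untreated arrays 1, 2 and 3, 515, 116 and 151 with ET-1, 585, 133 and 132 with ET-2 and 610.0, 107 and 77.0 with ET-3. In both genes at least 1 endothelin array numbered 2 or 3 lay below the untreated array of the same number. Over the 3 endothelins Plk4 was at 0.56 (adjusted p = 0.0979) and Aurkb at 0.82 (adjusted p = 0.113 by limma, paired fit).

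Mitotic kinesins gave the largest median of any role in number 1 apart from the anaphase-promoting complex, at 2.03 on the log2 scale (4.08-fold), and 0.32 and -0.01 in numbers 2 and 3. Kif20a, a kinesin of the central spindle, read 106, 86.2 and 119 on untreated arrays 1, 2 and 3, 625, 163 and 143 with ET-1, 640.2, 146 and 160.1 with ET-2 and 659, 182 and 216 with ET-3. It was the 1 cell cycle gene for which all 9 endothelin arrays lay above all 3 untreated arrays, against 0.858% of all named genes. Kif20a rose by 1.52 ± 0.34 with ET-3 (adjusted p = 0.0340 by limma, paired fit), and stood at 1.25 with ET-1 (adjusted p = 0.0943) and 1.26 with ET-2 (adjusted p = 0.0972). With the 3 together it rose by 1.34 (adjusted p = 0.0165), and without number 1 the value was 0.72 (adjusted p = 0.109).

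Separation of all arrays was also counted for each endothelin. Every ET-1 array lay above every untreated array for Ccnb2, Kif20a, Nusap1 and Hmmr (3.03% of all named genes), every ET-2 array for Birc5 and Kif20a (3.99%) and every ET-3 array for Kif20a (3.74%). These shares are 4, 2 and 1 of the 43 genes.

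Kif22, a chromosome-arm kinesin, had a small but even difference. It read 668, 512 and 430.0 on untreated arrays 1, 2 and 3, 903, 604 and 486 with ET-1, 878, 654 and 602 with ET-2 and 978, 574 and 618 with ET-3, or 0.46, 0.25 and 0.40 on the log2 scale in numbers 1, 2 and 3. It rose by 0.41 ± 0.10 with ET-3 (adjusted p = 0.0480 by limma, paired fit) and by 0.37 with the 3 together (adjusted p = 0.0226), which was 0.32 without number 1 (adjusted p = 0.207). Kif23, another central spindle kinesin, read 173, 182 and 154 on untreated arrays 1, 2 and 3, 929.6, 203 and 167 with ET-1, 1023, 207 and 134 with ET-2 and 982, 216 and 70.0 with ET-3. It was 5.64-fold higher in number 1 and 0.756-fold in number 3, where ET-3 array 3 was the lowest of all. Kif23 was not called (0.76 with the 3 together, adjusted p = 0.278 by limma, paired fit).

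Spindle and cytokinesis genes differed in number 1 by a median of 1.74 on the log2 scale, and by 0.27 and 0.56 in numbers 2 and 3. Nusap1, which bundles spindle microtubules, read 176, 152 and 91.5 on untreated arrays 1, 2 and 3, 574, 197 and 221 with ET-1, 642, 169 and 207 with ET-2 and 605, 185 and 138 with ET-3. Ect2, the exchange factor that starts the cleavage furrow, read 232, 135 and 106 on untreated arrays 1, 2 and 3, 861, 207 and 170.1 with ET-1, 949, 202 and 166 with ET-2 and 972, 177 and 169.8 with ET-3. Racgap1, a centralspindlin subunit that binds Ect2, read 304, 229.6 and 221 on untreated arrays 1, 2 and 3, 974, 300.4 and 279.5 with ET-1, 1064, 266 and 305 with ET-2 and 1015, 306 and 265 with ET-3. In all of them each endothelin array exceeded the untreated array of its number.

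With the 3 endothelins together Nusap1 rose by 1.02 (adjusted p = 0.0182), Ect2 by 1.07 (adjusted p = 0.0126) and Racgap1 by 0.81 (adjusted p = 0.0403 by limma, paired fit). Without number 1 these differences were 0.64, 0.60 and 0.35, with adjusted p of 0.213, 0.129 and 0.309. Prc1, which cross-links midzone microtubules, read 332, 293 and 219 on untreated arrays 1, 2 and 3, 952, 394 and 270.1 with ET-1, 954, 279.6 and 394 with ET-2 and 925, 324 and 317 with ET-3, and ET-2 array 2 lay below untreated array 2. Prc1 missed the threshold (0.75, adjusted p = 0.0517 by limma, paired fit).

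Of the chromosome proteins used as proliferation markers, Mki67, which encodes the Ki-67 antigen, read 288, 195 and 172 on untreated arrays 1, 2 and 3, 1052, 248 and 275 with ET-1, 1102, 244 and 261 with ET-2 and 1106, 309 and 259 with ET-3. The endothelin arrays numbered 1 reached 3.77-fold over untreated, and those of numbers 2 and 3 1.36 and 1.54-fold. Mki67 rose by 1.06 ± 0.25 with ET-3 (adjusted p = 0.0439 by limma, paired fit) and by 0.99 with the 3 together (adjusted p = 0.0164), and without number 1 the latter was 0.53 (adjusted p = 0.134). Top2a, the topoisomerase that untangles sister chromatids, read 196, 90.7 and 102 on untreated arrays 1, 2 and 3, 741, 137 and 156 with ET-1, 674, 129.8 and 86.8 with ET-2 and 656, 163 and 111 with ET-3. ET-2 array 3 lay below untreated array 3, and Top2a missed the threshold (0.88 with the 3 together, adjusted p = 0.0538 by limma, paired fit).

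The remaining tested genes, Ccnb1, Ccne1, Cdk1, Mcm6, Mcm7, Tyms, Kif15 and Hmmr, were not called on their brightest probe set. Averaged over the endothelins they differed in number 1 by 0.33 (Ccne1) to 1.998 (Cdk1) on the log2 scale, in number 2 by -0.26 (Ccne1) to 0.49 (Cdk1), and in number 3 by -0.19 (Mcm6) to 0.35 (Hmmr). Cdk1, the kinase of mitosis, came nearest to a call (0.89 with the 3 together, adjusted p = 0.0566 by limma, paired fit). The 8 genes below the filter differed in number 1 by 0.98 (Cdk2) to 2.42 (Kif2c), with 7 of 8 at least 2-fold, in number 2 by -0.20 (Cdk2) to 0.79 (Bub1b), and in number 3 by -1.49 (Kif2c) to 1.21 (Plk1). Their low signal in numbers 2 and 3 leaves such differences imprecise.

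Between the endothelins no cell cycle gene was called in either fit (limma; background 0.00%). None of the 35 had an unadjusted p under 0.05, against 3.70% (ET-2 and ET-1), 2.24% (ET-3 and ET-1) and 3.76% (ET-3 and ET-2) of all probe sets in the paired fit. ET-2 minus ET-1 ran from -0.35 (Top2a) to 0.19 (Tk1) on the log2 scale, ET-3 minus ET-1 from -0.36 (Kif23) to 0.27 (Kif20a), and ET-3 minus ET-2 from -0.34 (Aurkb) to 0.26 (Kif20a). Their 95% intervals in the paired fit had a median half-width of 0.53 on the same scale, which does not show that the peptides act alike.

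Other genes of the same pathways, 130 in a list of cyclin-dependent kinase inhibitors, E2F and mitotic transcription factors, further cyclins and kinases, origin and fork, kinetochore and condensation genes, were set beside them. Of these, 116 had a probe set and 79 were tested. In the paired fit 2, 5 and 3 were higher with ET-1, ET-2 and ET-3 (background 1.84%, 1.49% and 2.54% for a rise) and 10 with the 3 together (4.02%), and none was lower (limma). The counts with ET-1 and ET-3 lay near the background. Their median difference was 0.53 in number 1, with 35 of 116 at least 2-fold (6.08% of all named genes), and 0.16 and 0.05 in numbers 2 and 3. By list, 7 of 17 tested kinetochore, checkpoint and cohesion genes, 1 of 27 origin and fork genes, 1 of 11 further cyclins and kinases, 1 of 8 condensation genes and none of 8 E2F and pocket protein genes passed with the 3 together.

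Uhrf1, which reads DNA methylation at the fork, was called with every endothelin. Its signal was 291, 74.7 and 81.8 on untreated arrays 1, 2 and 3, 641, 177 and 126 with ET-1, 565, 132 and 131 with ET-2 and 739, 159.9 and 128 with ET-3. It rose by 1.001 ± 0.16, 0.82 and 1.03 with ET-1, ET-2 and ET-3 (adjusted p = 0.00645, 0.0253 and 0.00528 by limma, paired fit), and its differences in numbers 1, 2 and 3 were 1.15, 1.05 and 0.65. Cdca3, a mitotic entry factor, also rose with each, by 0.90, 0.79 and 0.999 (adjusted p = 0.0256, 0.0490 and 0.0124 by limma, paired fit). Nuf2, of the outer kinetochore, rose with ET-2 and ET-3 (1.12 and 1.005), and Spc24 (1.04) and Cdca8 (0.97) with ET-2. Pttg1 (0.89), Aspm (0.92), Smc2 (0.39), Ccnd3 (0.27) and Cenpf (0.93) rose with the 3 together. Without number 1 the paired fit called none of the 79 genes (unadjusted p under 0.05 in 9, 10 and 10 with ET-1, ET-2 and ET-3 and in 12 with the 3 together, near the 11.2%, 10.7%, 10.7% and 13.2% of all probe sets), and Uhrf1 was at 0.85 with the 3 together (adjusted p = 0.0694).

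None of the 6 tested cyclin-dependent kinase inhibitors was called. Cdkn1c, which encodes p57, read 2173, 273 and 341 on untreated arrays 1, 2 and 3, 638, 263 and 276 with ET-1, 653, 179.7 and 349 with ET-2 and 746, 262 and 371 with ET-3. Untreated array 1 was the highest by far, and the endothelin arrays numbered 1 lay 1.68 below it on the log2 scale on average, where the cell cycle genes were higher; numbers 2 and 3 differed by -0.24 and -0.05. Cdkn1c was at -0.66 with the 3 together (adjusted p = 0.128 by limma, paired fit). Cdkn1a, which encodes p21, read 970.2, 1317 and 3184 on untreated arrays 1, 2 and 3, 831, 1631 and 2936 with ET-1, 772, 1345 and 2861 with ET-2 and 879.5, 1361 and 3211 with ET-3, lowest in number 1 in every group. Cdkn1b and Cdkn2d were level across the arrays, at 2986.5 to 3608.5 and 1279 to 1789.

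Cdkn2a and Cdkn2c were dimmer. Cdkn2a was at 0.39 with the 3 together (adjusted p = 0.112) and Cdkn2c at 0.53 (adjusted p = 0.0987 by limma, paired fit). Cdkn2b, below the filter, read 12.7, 11.2 and 246 on untreated arrays 1, 2 and 3, 98.7, 57.8 and 255 with ET-1, 85.2, 12.1 and 246 with ET-2 and 14.2, 23.4 and 204 with ET-3, high on the arrays numbered 3 of every group.

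**Figure D4:**
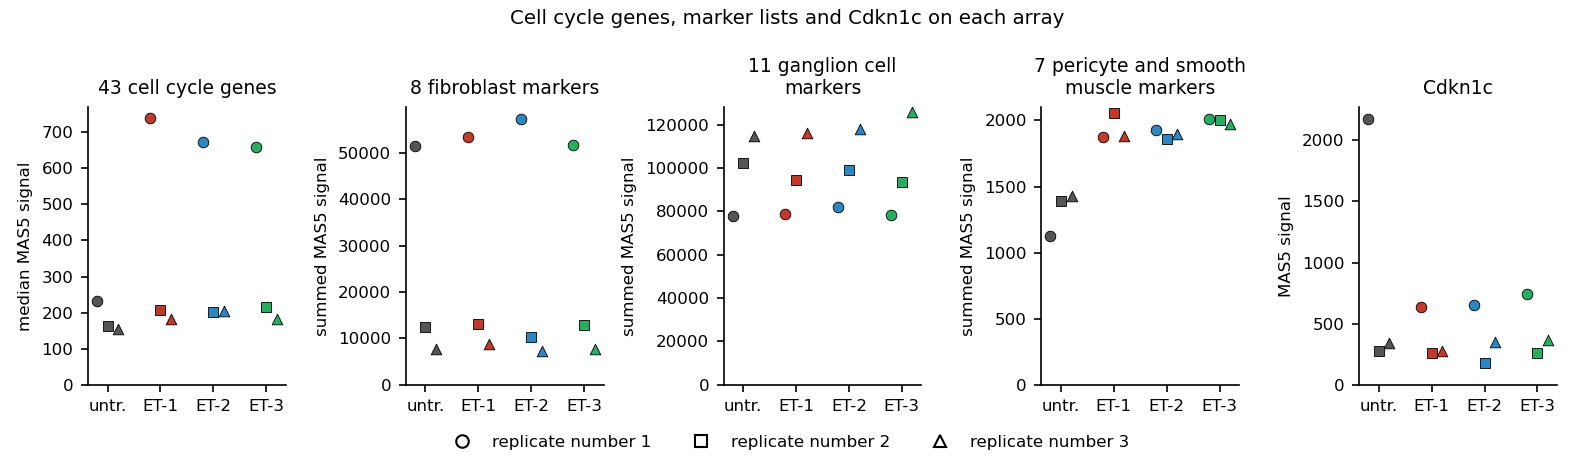
Median signal of the 43 cell cycle genes, summed signal of 8 fibroblast, 11 ganglion cell and 7 pericyte and smooth muscle markers, and signal of Cdkn1c on each array (linear axes from 0), by group and replicate number. The fibroblast sum is high on all 4 arrays numbered 1, untreated included, while the cell cycle median is high on the 3 endothelin arrays alone.

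Markers of other cells that a retinal culture could hold were summed on the same arrays. The fibroblast sum on endothelin arrays numbered 2 was 10281 to 13145 and on those numbered 3 it was 7299 to 8912, so the sum moved mainly with the replicate number. Its genes did not all run alike. Dcn, a matrix proteoglycan, differed by 0.44, -0.84 and -0.40 on the log2 scale in numbers 1, 2 and 3, and Lum, a related one, by 0.45, -0.44 and -0.27. These 2 do not stand for the whole list. The median difference of its 7 tested genes with the 3 endothelins together was 0.02. Of the 7 tested fibroblast genes none was called higher and Col3a1 was lower with the 3 together (-0.27, adjusted p = 0.0144 by limma, paired fit). The pericyte and smooth muscle sum was 1127, 1388 and 1426 on untreated arrays and 1858 to 2055 on the 9 endothelin arrays. Acta2 (0.55) and Pdgfrb (1.02), 2 of its 3 tested genes, rose with the 3 together (adjusted p = 0.000507 and 0.0102 by limma, paired fit). Pdgfrb, the platelet-derived growth factor receptor of pericytes and fibroblasts, read 256, 191 and 91.0 on untreated arrays 1, 2 and 3, 799, 321 and 121 with ET-1, 786, 235 and 207 with ET-2 and 799, 344 and 157 with ET-3, high on the same 3 arrays as the cell cycle genes. Without number 1 Acta2 was still called (0.54, adjusted p = 0.00751 by limma, paired fit) and Pdgfrb (0.71, adjusted p = 0.176) and Col3a1 (adjusted p = 0.0693) were not, while Dcn was called lower (-0.62, adjusted p = 0.0422).

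The astrocyte and Müller glia sum ran from 1855 to 2358 on the 12 arrays, with 2 of 7 genes above the filter, and that of microglia and macrophages from 1410 to 2947, with 5 of 7. The endothelial (289 to 750, 1 of 6) and oligodendrocyte (316 to 886, 1 of 5) sums were low. Kdr, a receptor of vascular endothelial growth factor and the 1 endothelial gene tested, was lower with the 3 together (-0.58, adjusted p = 0.0304 by limma, paired fit) and with ET-2 (-0.74, adjusted p = 0.0481); without number 1 the ET-2 call remained (adjusted p = 0.0485) and the other did not (adjusted p = 0.0711). The progenitor sum, with 3 of 5 above the filter, ran from 6380 to 8782 and was lowest on the arrays numbered 1. Of these 3, Nes, which encodes the intermediate filament nestin of progenitors and other dividing cells, rose with the 3 together (0.59, adjusted p = 0.0407 by limma, paired fit), by 0.34, 1.05 and 0.38 in numbers 1, 2 and 3, and was not called without number 1 (0.71, adjusted p = 0.102). None of the 11 ganglion cell markers was called with the 3 together. The part of these cell types in the differences of the cell cycle genes was not tested.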

How the data were processed

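The authors deposited 1 intensity per probe set and array for 12 arrays; the submitters' processing notes name MAS5, of which no settings are stated in these notes. On a linear scale, the deposited intensities have a mean after trimming 2% at each end of 496.7 to 498.3 on every array. Of 31042 probe sets, 20826 had 1 gene symbol in the platform annotation, 436 several and 9780 none; RefSeq held 20758 of the single-symbol ones and changed no symbol. Signals were taken as log2 with no further scaling, and the 15521 probe sets at or above the median mean signal were tested with limma 3.58.1 in R 4.3.3 (4 group means, eBayes with an intensity trend, two-sided p, Benjamini-Hochberg), checked on simulated data. The alternative with the replicate number as a block (paired fit) is printed beside it because same-numbered arrays deviated together. The simulated data had 1 residual SD for all probe sets and the same change in every number. They do not cover a change that differs between numbers, as it did for most cell cycle genes. The labels call the replicates biological but give no source for the numbering, so p-values measure the spread between these arrays. All 43 genes are accounted for. Values on every array are given for those called in either fit and the 2 brightest of each role. The genes and lists were chosen with earlier results of these data known. Promoter windows came from RefSeq. The number of arrays limits the precision.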

Additional observations from a re-analysis of the deposited data

How the results depend on the processing

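Without the replicate block, no cell cycle gene was called for any endothelin against untreated under any alternative run, and leaving out single arrays or numbers changed no such count; all counts between endothelins were 0 in either fit. With the replicate block the counts were 4 (ET-1), 5 (ET-2), 5 (ET-3) and 17 (the 3 together). With the block and only the compared groups the last was also 17, but the count was 0 for ET-1, ET-2 and ET-3 alike. For ET-1 the block with no filter gave 0. With median centring, with quantile normalization, with 32 added to the signal or with no intensity trend it gave 1 each. For ET-2 the block gave 1 with no filter, 6 with median centring, 2 with quantile normalization, 3 with 32 added and 1 with no trend, and for ET-3 it gave 1, 3, 2, 4 and 1. For the 3 together these were 13, 15, 13, 16 and 8. Leaving out arrays or numbers moved the paired counts over 0 to 14 (ET-1), 0 to 10 (ET-2), 0 to 14 (ET-3) and 1 to 20 (the 3 together), and counts without the block were 0 throughout; without number 1 they were 0, 0, 0 and 1.

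The median log2 change of the tested cell cycle genes against untreated stayed above 0 under every alternative run, from values of 0.75, 0.77, 0.65 and 0.75, but without number 1 it was 0.36, 0.30, 0.34 and 0.32. The spread between replicates of this median (SD 0.574, 0.643, 0.647 and 0.580) includes the gap between number 1 and the others, so that a move within it is no sign of stability. Between endothelins, leaving out a single array, which unbalances the numbers, moved the median from -0.03 over -0.61 to 0.46 (ET-2 minus ET-1), from -0.0013 over -0.56 to 0.42 (ET-3 minus ET-1) and from 0.03 over -0.54 to 0.54 (ET-3 minus ET-2). The cause of the other changes was not tested. For 17 named genes, 825 alternatives kept direction and side of the threshold of the unpaired fit. The other 345, all with the block, passed it, and none reversed. As the unpaired fit called no gene, the 825 are alternatives without a call, lost calls of the paired fit among them. For single endothelins, calls of the paired fit held in 1 of 15 (Ccnb2 with ET-1) to 10 of 15 (Tk1 with ET-3) alternatives with the block. With the 3 together they held in 4 of 21 (Ube2c) to 20 of 21 (Ccna2, Ccnd1, Tk1 and Ect2). With 1 array per group and number, how far the response differs between numbers has no test, and low signals in numbers 2 and 3 limit what could be seen there.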
